A study of Bos taurus with 22 samples.

Results

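The transcripts described here encode the enzymes that modify and conjugate foreign compounds in the jejunal mucosa of Holstein steers. They belong to the cytochrome P450 (CYP) families 1 to 4, the UDP-glucuronosyltransferases (UGT), the glutathione S-transferases (GST) of the alpha, mu, omega, pi and theta classes, and the cytosolic sulfotransferases (SULT) of families 1 and 2. Members were the protein-coding rows of the deposited gene table whose gene name begins with one of these family names, and rows that share a gene name were kept apart by gene identifier. This gave 44 members of 27570 genes, with 21 CYP, 4 UGT, 12 GST and 7 SULT.

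The steers were 10 to 12 months of age, and all received an abomasal infusion of raw corn starch (3.94 g per kg of body weight per day) for 7 d. In addition, they were infused with water or with casein (1.30 g per kg of body weight per day, as sodium caseinate), and were injected subcutaneously with glucagon-like peptide 2 (GLP-2; 100 μg per kg of body weight per day) or with the bovine serum albumin (BSA) vehicle. GLP-2 is an intestinal peptide hormone that promotes growth of the mucosa. The treatments were control (water and BSA, n = 5), GLP-2 (water and GLP-2, n = 5), casein (casein and BSA, n = 6) and casein + GLP-2 (n = 6), so that 11 GLP-2 steers were compared with 11 BSA steers and 12 casein steers with 10 water steers. No group lacked the starch infusion. Each sample was scraped mucosa from a different steer, sequenced as bulk poly(A) RNA.

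CYP enzymes are membrane-bound monooxygenases that add oxygen to lipophilic compounds, which is termed phase I. UGT, GST and SULT enzymes then couple glucuronic acid, glutathione or sulfate to the product, which is termed phase II, and efflux transporters carry the conjugates out of the cell. In the small intestine these enzymes are known mainly from the absorptive enterocytes of the villus, where they meet feed compounds before the liver does. Several members also act on the body's own substrates, such as bilirubin, steroids, bile acids and fatty acids.

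Deposited counts per steer totaled 8809666 to 28447810, of which the 44 members made up 0.122% to 0.683%. The 14 villus enterocyte markers examined were all detected in every steer. Their score, the mean log2 CPM (read counts scaled to library size) of the list, ranged from 5.99 to 10.45 in BSA steers and from 8.84 to 10.86 in GLP-2 steers, and their summed level from 2196 to 70282 and from 17939 to 102872 CPM. Markers of B cell follicles, lymphoid tissue that a mucosal scraping can include, had summed levels of 129 to 2039 CPM with BSA and 96 to 155 CPM with GLP-2. In bulk RNA, fewer cells of a type and less RNA per cell cannot be told apart. Of 6 hepatocyte markers, the albumin gene ALB had 40 counts in all 22 steers together, AHSG 9, FGB 31, TTR 116, SERPINA1 1688 and TAT 2191.

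Of the 44 members, 4 (CYP2F1, CYP4A22, CYP4X1 and SULT1E1) had 0 counts in every steer. A limit of 3 counts corresponds to 0.105 CPM in the deepest library and 0.341 CPM in the shallowest, and covers counting error only. A further 10 had counts but stayed below the filter in every model, and the most abundant of these was CYP2E1 with 118 counts in all. CYP2E1 and CYP1A2 (16 counts), both characteristic of liver, were thus near the detection limit, as were CYP2C19 (3 counts) and GSTO2 (18 counts). GSTO2, the only omega-class member, had 13 of its counts in casein replicate 2. The models of pooled groups tested 28 members (14 CYP, 3 UGT, 8 GST and 3 SULT), and the model of the 4 treatments tested 30, adding GSTA3 and UGT3A2.

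The order of transcript levels can be read only per gene length, and is given here as deposited FPKM (fragments per kilobase of transcript, scaled to the library), as the mean ± SD of 22 steers. UGT2B10 (232 ± 113) and UGT1A1 (222 ± 134) were the most abundant, followed by GSTA1 (216 ± 159), CYP4F2 (175 ± 91.6), UGT2A1 (148 ± 97.4) and CYP2C87 (126 ± 85.8). Levels are per gene row, so transcripts within a row, such as the long UGT1A1 interval (113300772 to 113425176), were not told apart. UGT1A1 encodes the transferase that glucuronidates bilirubin, CYP4F2 hydroxylates long-chain fatty acids and vitamin E, and GSTA1 is an alpha-class enzyme abundant in gut and liver. These 6 members held 74.7% of the summed FPKM of all members. Among the 28 most abundant members, 4 of 27 neighboring pairs were further apart than the smaller of their SD, and the first such gap was between CYP2C87 and SULT1B1 (60.9 ± 49.6). No neighboring pair within the first 6 was that far apart, whereas UGT2B10, UGT1A1 and GSTA1 each lay above CYP2C87 by more than the SD of CYP2C87.

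**Figure D1:**
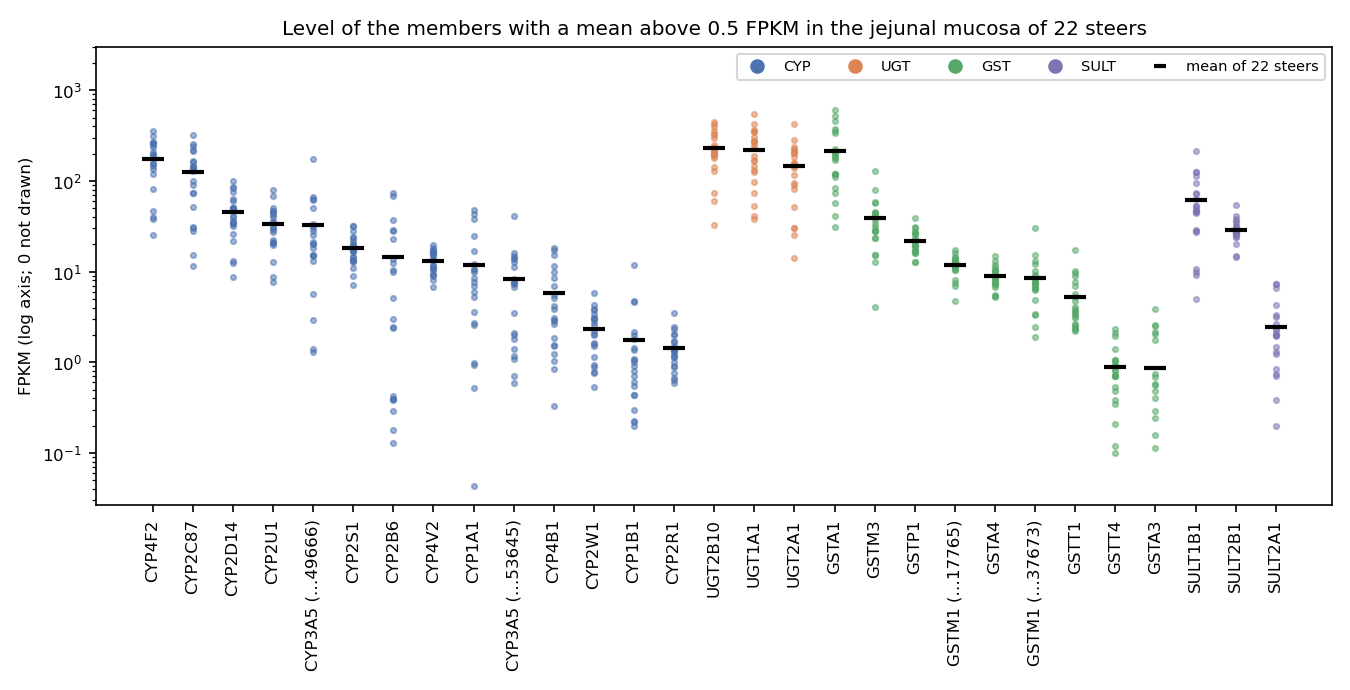
Deposited FPKM (log axis) of the members with a mean above 0.5 FPKM, grouped by family on the horizontal axis. Each point is 1 of 22 steers and the bar is their mean. The leading UGT transcripts and GSTA1 lie above 100 FPKM on average, and CYP1A1, CYP2B6 and the CYP3A5 loci span wide ranges.

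By family, UGT transcripts made up 40.1% of the summed member FPKM, CYP 32.7%, GST 21.0% and SULT 6.19%. These shares count named members only. Unnamed relatives described below, among them genes described as SULT1A1, CYP2J2 and CYP3A4, had levels above that of SULT1B1 and are left out. Among the named members, single ones made up much of each family. GSTA1 provided 68.9% of the GST sum, SULT1B1, which sulfates phenols and thyroid hormone, provided 65.8% of the SULT sum, and CYP4F2 provided 35.7% of the CYP sum. The next members were CYP2D14 (45.6 ± 24.5), the mu-class GSTM3 (39.2 ± 26.4), CYP2U1 (33.6 ± 17.9), a CYP3A5 locus (32.4 ± 36.8), the cholesterol sulfotransferase SULT2B1 (29.0 ± 8.49) and the pi-class GSTP1 (21.9 ± 6.43). The aryl hydrocarbon-inducible CYP1A1 averaged 11.8 ± 14.1 FPKM and CYP1B1 1.75 ± 2.59.

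Members differed widely in their spread between steers. The coefficient of variation of CPM over 22 steers had a median of 65.2% for the 28 members tested in the pooled models, and ranged from 25.2% for a GSTM1 locus (ENSBTAG00000017765) to 149% for CYP1B1. Steady members were CYP4V2 (27.2%), a fatty acid hydroxylase, GSTA4 (28.1%), which conjugates aldehydes of lipid peroxidation, SULT2B1 (29.2%) and GSTP1 (29.4%). Variable members were CYP2B6 (146%), CYP1A1 (119%) and the CYP3A5 loci (109% and 104%), whose families are known for induction by foreign compounds. CYP4B1 (94.3%), SULT2A1 (88.3%) and SULT1B1 (78.7%) followed, and the causes of the spread were not tested. CYP2B6 was 6.36, 74.0, 13.1, 0.338 and 7.68 CPM in control steers and 0.479, 189.8, 1.07, 99.7 and 0.763 CPM in GLP-2 steers, and ranged from 0 to 37.2 CPM (median 3.73) with casein and from 1.15 to 179 CPM (median 44.3) with casein + GLP-2. The CYP2B6 ranges of the 4 treatments overlapped.

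The same few steers lay at the ends of the order for many members. Of the 30 members tested, 28 had their lowest CPM in a BSA steer. They included 10 in control replicate 5, 7 in casein replicate 3, 5 in control replicate 2 and 4 in casein replicate 1. Members tied at 0 were assigned to a single steer, and UGT3A2, assigned to casein replicate 1, was at 0 in GLP-2 steers too. GSTA3 was likewise assigned to casein replicate 1 at 0, and both genes were tested only in the model of the 4 treatments. At the other end, the highest CPM was in a GLP-2 steer for 17 members and in a BSA steer for 13. The share of all genes is not given for either end, so these counts cannot be read as particular to the members. The villus enterocyte score was the lowest of all steers in control replicate 5 (5.99), casein replicate 1 (6.58) and casein replicate 3 (7.55). The follicle score was high in control replicate 5 (6.10) and casein replicate 3 (6.67), but was 3.55 in casein replicate 1. It was also high in control replicate 1 (6.04), and highest in control replicate 3 (6.87), which was the lowest steer for only 1 member. Casein + GLP-2 replicate 1, with the highest enterocyte score (10.86), had the highest CPM for 8 members. Control replicate 2, which had one of the higher enterocyte scores (10.45), was lowest for other genes, namely CYP2R1, CYP2W1, GSTM3 and both GSTM1 loci.

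The comparison of GLP-2 with BSA addressed the effect of the hormone over both infusions. Only 1 of the 28 members tested passed an adjusted p of 0.05 (edgeR quasi-likelihood test, Benjamini-Hochberg adjustment over all genes), against 13.5% of the 13928 genes tested, of which 5.13% were higher and 8.37% lower. That member was CYP2U1, a hydroxylase of long-chain fatty acids such as arachidonic acid, and it was higher with GLP-2. A further 2 members had adjusted p values between 0.05 and 0.1, and at this wider limit 3 of 28 members (10.7%), all higher, stood against 26.1% of all genes, or 11.9% counting only genes that were higher. Without adjustment, 7 of 28 members (25%) reached a p of 0.05, all higher with GLP-2, against 34.6% of all genes and 16.5% counting only genes that were higher. DESeq2 called 3 of 28 members, against 22.4% of genes. In edgeR, leaving out control replicate 2 raised the called members to 5 (CYP2C87, CYP2D14, CYP2U1, the CYP3A5 locus ENSBTAG00000049666 and SULT1B1), or 17.9% of 28, against 25.0% of all genes in the same fit. The called members were 3 without casein replicate 6 (background 20.6%), 3 without GLP-2 replicate 4 (16.8%) and 2 without control replicate 4 (17.1%). In each of these fits the share of members called was below that of all genes called in either direction. The share of genes called higher only is not given for DESeq2 or for the fits without 1 steer.

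CYP2U1 was 92.6, 133, 56.7, 142 and 34.6 CPM in control steers, and 105, 211, 130.5, 189 and 229 CPM in GLP-2 steers. With casein it ranged from 39.9 to 208 CPM (median 97.9), and with casein + GLP-2 from 164 to 363 CPM (median 210.0). All 11 GLP-2 steers lay above the BSA median, 7 BSA steers lay below the lowest GLP-2 steer, and the ranges overlapped. The mean was 207 ± 72.6 CPM (SD, n = 11) over GLP-2 steers and 104 ± 51.4 CPM (n = 11) over BSA steers, a log2 fold change of 1.01 (SE 0.264, adjusted p = 0.0239 in edgeR). With the replicate block as a term the log2 fold change was 1.03 and the edgeR adjusted p was 0.0489, while 4.95% of all genes were called. In the model of the 4 treatments, CYP2U1 had log2 fold changes of 0.92 (SE 0.385) for GLP-2 against control and 1.04 (SE 0.352) for casein + GLP-2 against casein, with edgeR adjusted p values of 0.295 and 0.127.

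**Figure D2:**
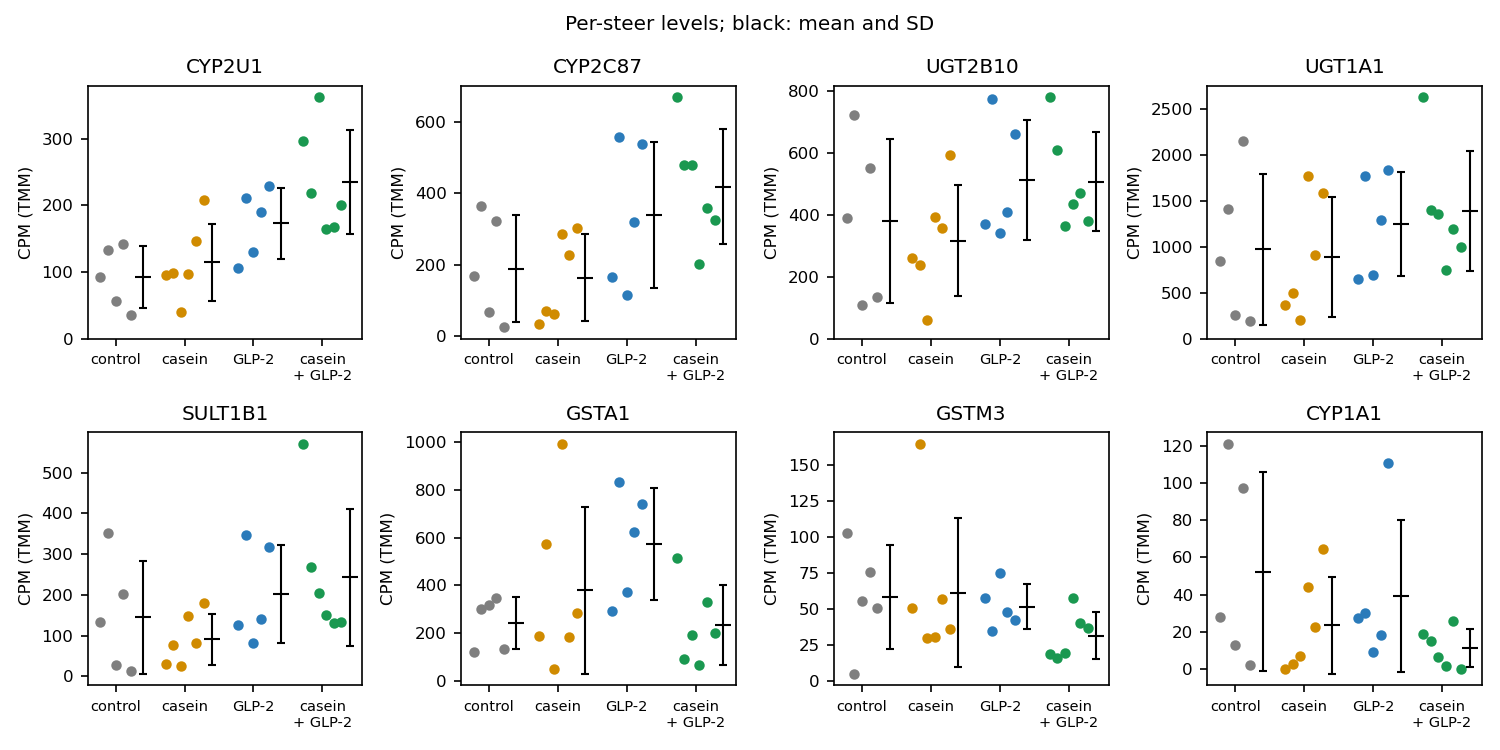
TMM-normalized CPM of 8 members in each steer by treatment, with the mean and SD in black. CYP2U1 is higher in most GLP-2 and casein + GLP-2 steers than in BSA steers, with overlapping ranges, whereas GSTM3 and CYP1A1 vary within treatments by more than the treatment means differ.

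The members with a tendency were CYP2C87 and CYP2D14, which belong to subfamilies known for drug metabolism. CYP2C87 was 167, 365, 66.1, 323 and 25.1 CPM in control steers and 166, 559, 116, 320.2 and 537 CPM in GLP-2 steers. It ranged from 33.3 to 304 CPM (median 149) with casein and from 202 to 669 CPM (median 419.9) with casein + GLP-2. Among GLP-2 steers, 5 lay above every BSA steer, but the lower GLP-2 steers fell within the BSA range. The log2 fold change for CYP2C87 was 1.15 (SE 0.424, adjusted p = 0.0662 in edgeR), and that for CYP2D14 was 0.83 (SE 0.308, adjusted p = 0.0676), with means of 156 ± 81.9 CPM over BSA and 273 ± 110.4 CPM over GLP-2 steers.

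Among the other CYP members, CYP4F2 was 160.0, 465, 73.3, 307 and 48.6 CPM in control steers and 241, 513, 276, 361 and 513 CPM in GLP-2 steers, and ranged from 79.0 to 492 CPM (median 340.0) with casein and from 315 to 687 CPM (median 470.4) with casein + GLP-2. As for CYP2C87, 5 GLP-2 steers lay above every BSA steer and 5 BSA steers below every GLP-2 steer. The log2 fold change was 0.80 (SE 0.348, adjusted p = 0.107 in edgeR). CYP2B6 had the largest fitted value of the members tested, 1.92, with an SE of 0.975 and an adjusted p of 0.164. CYP4V2 (0.16, SE 0.176) and CYP2S1 (0.17, SE 0.224), a CYP of epithelial surfaces, had smaller values and narrower errors. Of 14 CYP members, 11 had a positive and 3 a negative log2 fold change, with a median of 0.52 against 0.0079 for all genes. The negative values were those of CYP1A1 (−0.60, SE 0.783), the vitamin D 25-hydroxylase CYP2R1 (−0.51, SE 0.280) and CYP2W1 (−0.33, SE 0.369).

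The 3 UGT members tested had positive log2 fold changes, and none passed the threshold in edgeR or in DESeq2. UGT2B10 was 390.2, 721, 107, 549.9 and 134 CPM in control steers and 370.3, 773, 342, 408 and 661 CPM in GLP-2 steers. Casein steers spanned 59.8 to 593 CPM (median 308), and casein + GLP-2 steers 363 to 779 CPM (median 452). The lowest 5 steers were all BSA steers, while high values occurred in each treatment. The log2 fold change was 0.58 (SE 0.322, adjusted p = 0.206 in edgeR) for UGT2B10, 0.54 (SE 0.395, adjusted p = 0.336) for UGT1A1 and 0.89 (SE 0.419, adjusted p = 0.133) for UGT2A1, which is best known from the olfactory epithelium. UGT1A1 was 843, 1407, 259, 2149.7 and 187 CPM in control steers and 652, 1763, 685, 1289 and 1827 CPM in GLP-2 steers, and ranged from 206 to 1771 CPM (median 701) with casein and from 742 to 2621 CPM (median 1275) with casein + GLP-2. Its spread within a treatment was wider than the difference between the pooled means, 1320.3 ± 589 CPM with the hormone and 924 ± 699 CPM without it. The remaining member, UGT3A2, which uses sugars other than glucuronic acid, averaged 0.157 ± 0.196 FPKM over all steers.

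GST members did not share this direction, since 3 of 8 had positive values and the median log2 fold change was −0.21. GSTA1 averaged 388 ± 259 CPM over GLP-2 steers and 318 ± 265 CPM over BSA steers (log2 fold change 0.31, SE 0.442, adjusted p = 0.633 in edgeR). For GSTM3 the means were 40.6 ± 18.5 and 59.8 ± 43.0 CPM (−0.57, SE 0.364, adjusted p = 0.269 in edgeR). The GSTM1 locus ENSBTAG00000037673 was at −0.60 (SE 0.337, adjusted p = 0.207 in edgeR) and its neighbor ENSBTAG00000017765 at 0.05 (SE 0.171). GSTP1, which is widespread in epithelia, had a log2 fold change of 0.05 with a 95% interval of −0.29 to 0.40. GSTA4 had one of −0.05 with an interval of −0.39 to 0.30. Both intervals use the normal distribution and are somewhat narrower than the edgeR test implies. The theta-class members GSTT1 and GSTT4, which act on small halogenated compounds, had values of −0.38 (SE 0.359) and −0.60 (SE 0.433).

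Of the SULT members, SULT1B1 was 134, 351, 26.8, 202 and 13.8 CPM in control steers and 125, 348, 81.1, 140.2 and 316 CPM in GLP-2 steers. It ranged from 25.9 to 181 CPM (median 79.4) with casein and from 130.2 to 571 CPM (median 178) with casein + GLP-2. Again the lowest 5 steers were BSA steers and the ranges overlapped. GLP-2 minus BSA differences on the log2 scale were 0.99 (SE 0.464, adjusted p = 0.133 in edgeR) for SULT1B1, 0.31 (SE 0.582, adjusted p = 0.723) for the bile acid and steroid sulfotransferase SULT2A1, and −0.19 (SE 0.175, adjusted p = 0.442) for SULT2B1.

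Summed over a family, CYP transcripts had means of 349 ± 245 FPKM in control, 555 ± 239 in GLP-2, 349 ± 185 in casein and 695 ± 276 in casein + GLP-2 steers. The UGT sums, in the same order of treatments, were 508 ± 379, 674 ± 287, 441 ± 292 and 777 ± 339 FPKM. For SULT the sums were 84.4 ± 52.0, 103 ± 47.2, 66.2 ± 28.8 and 118 ± 68.2 FPKM. No test was made on these sums.

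**Figure D3:**
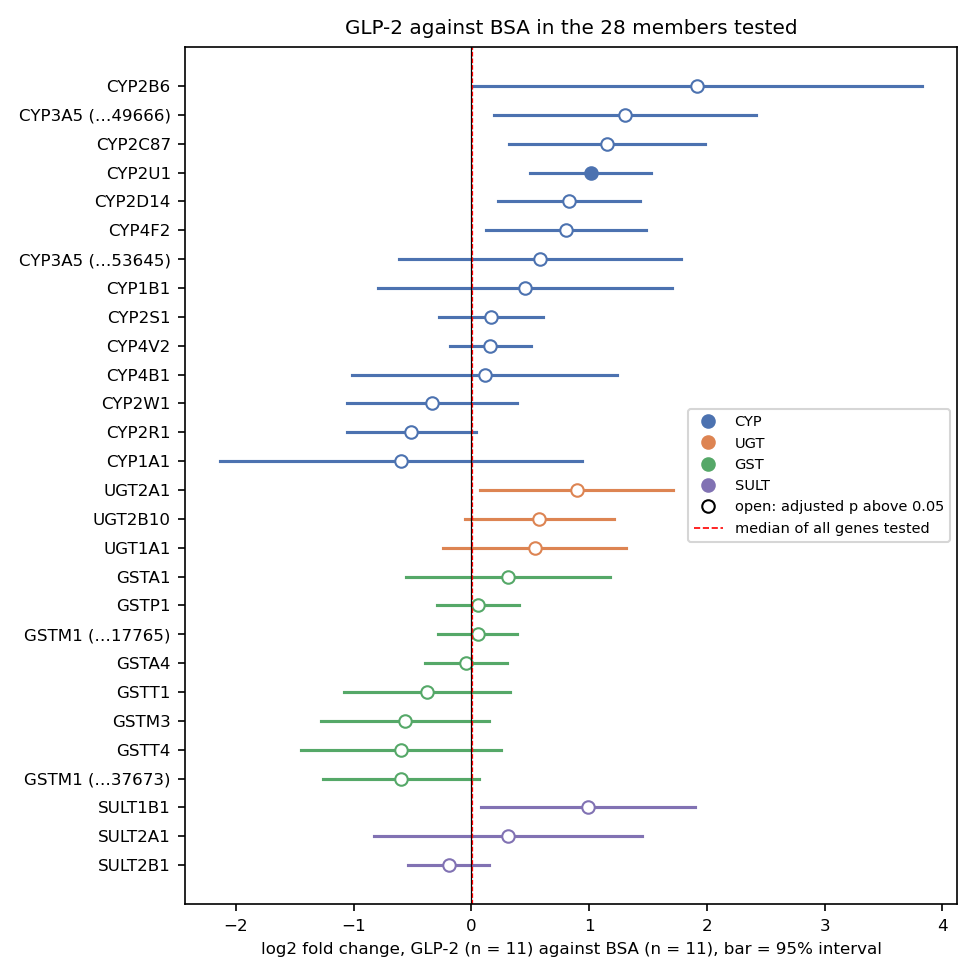
Log2 fold change of GLP-2 against BSA (horizontal axis) with its 95% interval for each of 28 members, colored by family. The intervals are taken from the SE and the normal distribution, and are somewhat narrower than the edgeR test implies. The filled point, CYP2U1, is the only one with an edgeR adjusted p of at most 0.05, and the dashed line is the median of all genes (0.0079).

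Cell type markers moved with these values. With GLP-2, all 14 villus enterocyte markers had positive log2 fold changes (median 0.90), 1 of them past the threshold. Of the 10 B cell follicle markers tested, 9 were lower. Over all genes tested, 5.13% were called higher and 8.37% lower in edgeR. When the enterocyte score was added as a covariate, 10 of the 28 members had positive log2 fold changes in place of 19, the median went from 0.24 to −0.06, and 0 members and 0 genes passed the adjusted threshold in edgeR (3 members at an unadjusted p of 0.05). With the follicle score as a covariate, 12 of 28 were positive, the median was −0.06, and again 0 members and 0 genes passed (1 member at an unadjusted p of 0.05). CYP2U1 had a log2 fold change of 0.45 (SE 0.212, edgeR adjusted p = 0.793) beside the enterocyte score and of 0.36 (SE 0.261) beside the follicle score. Beside the enterocyte score, CYP2C87 was at 0.15, CYP2D14 at 0.05, CYP4F2 at 0.05 and SULT1B1 at −0.07. Both scores differed between the treatments themselves, so the covariate and the treatment cannot be told apart in these fits.

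**Figure D4:**
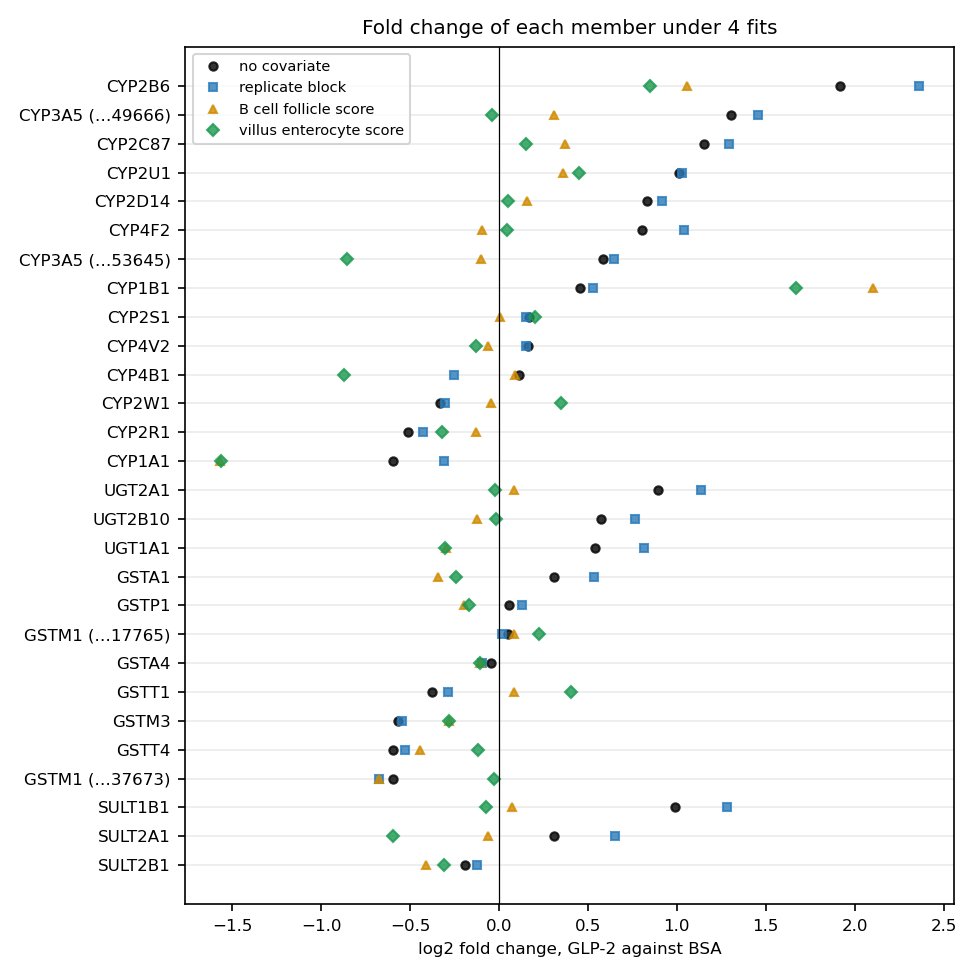
Log2 fold change of GLP-2 against BSA (horizontal axis) for the 28 members under 4 fits. Values with the replicate block (squares) lie within 0.45 of those without a covariate (circles), with CYP2B6 the farthest apart and CYP4B1 on the other side of 0. Those with a follicle score (triangles) or an enterocyte score (diamonds) lie nearer to 0 for CYP2U1, CYP2C87, CYP2D14, UGT2B10 and SULT1B1, and farther from 0 for CYP1A1 and CYP1B1.

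The rest of the xenobiotic pathway was read from lists of related genes. Positive values were not particular to these lists, since the villus enterocyte markers were all positive too, and the median of all genes was 0.0079. Of 12 transcriptional regulators tested, 11 had positive log2 fold changes and 1 was higher with GLP-2, HNF4A (0.80, SE 0.241), a nuclear receptor of liver that is also active in enterocytes. The xenobiotic receptors AHR (0.54, SE 0.198), NR1I2, the pregnane X receptor (0.57, SE 0.249), and NR1I3 (0.70, SE 0.252) had edgeR adjusted p values of 0.0669, 0.110 and 0.0596. Among 18 other phase I enzymes, 16 were positive and 3 were higher, the flavin monooxygenase FMO4 (0.89, SE 0.219), the amine oxidase MAOB (0.93, SE 0.292) and the carboxylesterase CES2 (0.84, SE 0.269). Of 11 genes listed as other phase II enzymes, the acetyltransferase NAT1 was higher (0.63, SE 0.201). PTGES, in the same list although it makes prostaglandin E, was lower (−1.99, SE 0.566).

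Of 13 genes that supply the conjugating groups, 1 was higher with GLP-2, SLC35D1 (1.36, SE 0.409), which carries UDP-glucuronic acid into the endoplasmic reticulum where UGT enzymes work. Among 9 transporters, the conjugate exporter ABCC3 was higher (0.48, SE 0.158). Among 7 CYP genes outside the 4 families, 1 was higher, CYP51A1 of cholesterol synthesis (0.99, SE 0.318), and the median was −0.08. Of 5 genes listed as redox partners of CYP enzymes, 0 passed the edgeR threshold, and POR, the reductase, was at 0.56 (SE 0.230, adjusted p = 0.0932 in edgeR). Each of these lists had from 0% to 18.2% of its tested genes called, against the 13.5% of all genes. With the replicate block, 1 gene passed in each of the other phase I, other phase II and outside CYP lists, against 4.95% of all genes. The regulators, redox partners, transporters and suppliers of conjugating groups had 0.

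A comparison of casein with water addressed the effect of the infused protein. No member of 28 passed the adjusted threshold in edgeR (background 0%), none reached an unadjusted p of 0.05 against 3.36% of 14096 genes, and DESeq2 called 0 members against 0.0355% of genes. There were 15 positive and 13 negative log2 fold changes with a median of 0.04. The smallest p values belonged to the CYP1 members, which metabolize polycyclic hydrocarbons and estrogens. CYP1A1 was 27.7, 121, 12.9, 97.7 and 2.33 CPM in control steers and 27.2, 30.2, 9.33, 18.0 and 111 CPM in GLP-2 steers, and it ranged from 0 to 64.5 CPM (median 14.8) with casein and from 0.115 to 25.5 CPM (median 10.9) with casein + GLP-2. High and low steers occurred in each treatment. Casein against water gave a log2 fold change of −1.40 (SE 0.753, unadjusted p = 0.0757, adjusted p = 0.994 in edgeR) for CYP1A1, whose means were 17.3 ± 19.8 CPM with casein and 45.7 ± 45.4 CPM with water. For CYP1B1 it was −1.13 (SE 0.613, unadjusted p = 0.0781, adjusted p = 0.994 in edgeR). CYP1B1 was 34.2 CPM in GLP-2 replicate 1 and at most 13.3 CPM in every other steer. Without that steer its value for casein against water was −0.36, and for GLP-2 against BSA it went from 0.46 to −0.51.

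Within each infusion, GLP-2 was compared in the model of the 4 treatments. For GLP-2 against control, 0 of 30 members were called by edgeR (background 0%), 3 reached an unadjusted p of 0.05 against 13.9% of 15086 genes, and DESeq2 called 0 against 2.04% of genes. These 3 were CYP2U1, GSTA3 and UGT3A2. The last pair had few counts, with GSTA3 at 0 to 0.451 CPM in control steers and 0.638 to 3.59 CPM in GLP-2 steers. UGT3A2 was at 0 to 2.51 CPM in control steers and 0 to 0.123 CPM in GLP-2 steers. Both passed only the filter by treatment, which a gene can pass on counts from the steers of 1 treatment alone. Their p values are therefore not independent of that filter and are no support for a difference. For casein + GLP-2 against casein, edgeR called 0 of 30 members (background 0%), 5 reached an unadjusted p of 0.05 against 24.1% of genes, and DESeq2 called 2 against 6.55% of genes. The members called by DESeq2 were CYP2U1 and the GSTM1 locus ENSBTAG00000037673, the latter lower with casein + GLP-2. The steers of these comparisons do not overlap, but they share 1 estimate of the spread.

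For casein against control, edgeR called 0 of 30 members (background 0%), 1 reached an unadjusted p of 0.05 against 5.66% of genes, and DESeq2 called 0 against 0.0663%. For casein + GLP-2 against GLP-2, edgeR called 0 (background 0%), 3 reached an unadjusted p of 0.05 against 2.64% of genes, and DESeq2 called 0 against 0.0332%. The casein by GLP-2 interaction likewise gave 0 called members by edgeR (background 0%) and by DESeq2 (background 0.0133%), and 5 of 30 reached an unadjusted p of 0.05 against 4.28% of genes. The smallest edgeR adjusted p of a member for the interaction was 0.996. The 30 members include GSTA3 and UGT3A2, so these unadjusted counts carry the limit of the filter by treatment given above.

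The smallest interaction p was that of the GSTM1 locus ENSBTAG00000037673. It was 10.4, 2.47, 8.08, 8.27 and 8.30 CPM in control steers and 10.5, 3.11, 15.9, 12.03 and 9.61 CPM in GLP-2 steers, and ranged from 9.41 to 39.2 CPM (median 15.1) with casein and from 4.33 to 11.8 CPM (median 7.38) with casein + GLP-2. Casein steers were thus the highest group on average, although their lower values fell within the other groups. The interaction on the log2 scale was −1.71 (SE 0.606, unadjusted p = 0.00981, adjusted p = 0.996 in edgeR).

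CYP4B1, an enzyme of lung and gut that hydroxylates fatty acids, had means of 21.2 ± 16.1 CPM in control, 7.63 ± 6.21 in GLP-2, 8.42 ± 5.71 in casein and 21.5 ± 18.5 in casein + GLP-2 steers. Each treatment held steers below 4 CPM, and the interaction was 2.83 (SE 1.06, unadjusted p = 0.0137, adjusted p = 0.996 in edgeR). GSTA1 was 121, 301, 317, 349 and 133 CPM in control steers and 295, 833, 372, 625 and 741 CPM in GLP-2 steers. It ranged from 49.9 to 992 CPM (median 237) with casein and from 67.2 to 516 CPM (median 197) with casein + GLP-2. GLP-2 steers were mostly higher than control steers, whereas casein + GLP-2 steers lay within the casein range. The GSTA1 interaction was −1.93 (SE 0.816, unadjusted p = 0.0272, adjusted p = 0.996 in edgeR). The summed GST level, of which GSTA1 was the leading part, had means of 251.2 FPKM in control, 448.6 in GLP-2, 343.4 in casein and 224.2 in casein + GLP-2 steers.

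Many members lie side by side in the genome (ARS-UCD1.2), where reads of related genes can be shared or dropped by the counting. Together with 21 protein-coding relatives that the table leaves without a gene name, the 65 loci formed 12 groups of neighbors in which each locus lay within 1 Mb of the next, and these held 31 of the 44 members. GSTM3 and both GSTM1 loci lie on chromosome 3 (33652466 to 33765942), the alpha-class GST genes on chromosome 23 (25074938 to 25224154), and the UGT2 genes with SULT1B1 and SULT1E1 on chromosome 6 (84189236 to 85365114). Of the members tested, 9 overlapped the interval of another gene, 4 of them on the same strand. The same-strand partners of CYP2C87 (41 counts in all), CYP2S1 (397) and GSTM1 ENSBTAG00000017765 (14) had few counts, while UGT3A2 (179 counts) overlapped a gene with 460. CYP2R1 (1539 counts) overlapped PDE3B (14782 counts) on the opposite strand. The libraries were strand-specific, but whether the counting used the strand is not given in the sources used here.

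The CYP3A genes, whose human relatives oxidize many drugs, form a row of 4 loci on chromosome 25 (36530341 to 36759920). The CYP3A5 locus ENSBTAG00000049666 was 59.8, 174, 15.5, 57.9 and 3.88 CPM in control steers and 52.1, 137, 37.4, 81.6 and 71.7 CPM in GLP-2 steers. It ranged from 3.66 to 91.2 CPM (median 43.0) with casein and from 42.7 to 459.9 CPM (median 139) with casein + GLP-2. Its highest value, in casein + GLP-2 replicate 1, was in the steer with the highest enterocyte score. The log2 fold change for GLP-2 against BSA was 1.30 (SE 0.568, adjusted p = 0.109 in edgeR), and that of the other CYP3A5 locus, ENSBTAG00000053645, was 0.59 (SE 0.611, adjusted p = 0.507). Between them lies an unnamed gene described as CYP3A4 (ENSBTAG00000052665), which was not a member but had the highest level of the row, 158 FPKM on average.

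The last locus of the row, ENSBTAG00000054260, carries the description CYP3A24 and was present or absent by steer. It is not a member by name and was chosen after its values were seen. It had counts above 3 in 10 of 22 steers, 1 count in control replicate 2, and 0 in the other 11. With casein + GLP-2 all 6 steers had it, at 284 to 1706 counts (32.5 to 119.9 CPM), whereas all 5 GLP-2 steers had 0 counts. Control replicates 1 and 4 had 64.4 and 97.0 CPM, and casein replicates 1 and 5 had 13.6 and 25.7 CPM. The neighboring CYP3A5 loci were counted in every steer, including those without ENSBTAG00000054260. In casein replicate 1 this locus took 63.3% of the counts of the row and the CYP3A4-described locus 9.65%, whereas the latter took 47.3% to 91.3% in the other steers. The edgeR adjusted p was 0.170 for GLP-2 against control, 0.995 for casein + GLP-2 against GLP-2 and 0.996 for the interaction. Reads of these near relatives can be assigned to one another, and the part of that in these values was not tested.

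**Figure D5:**
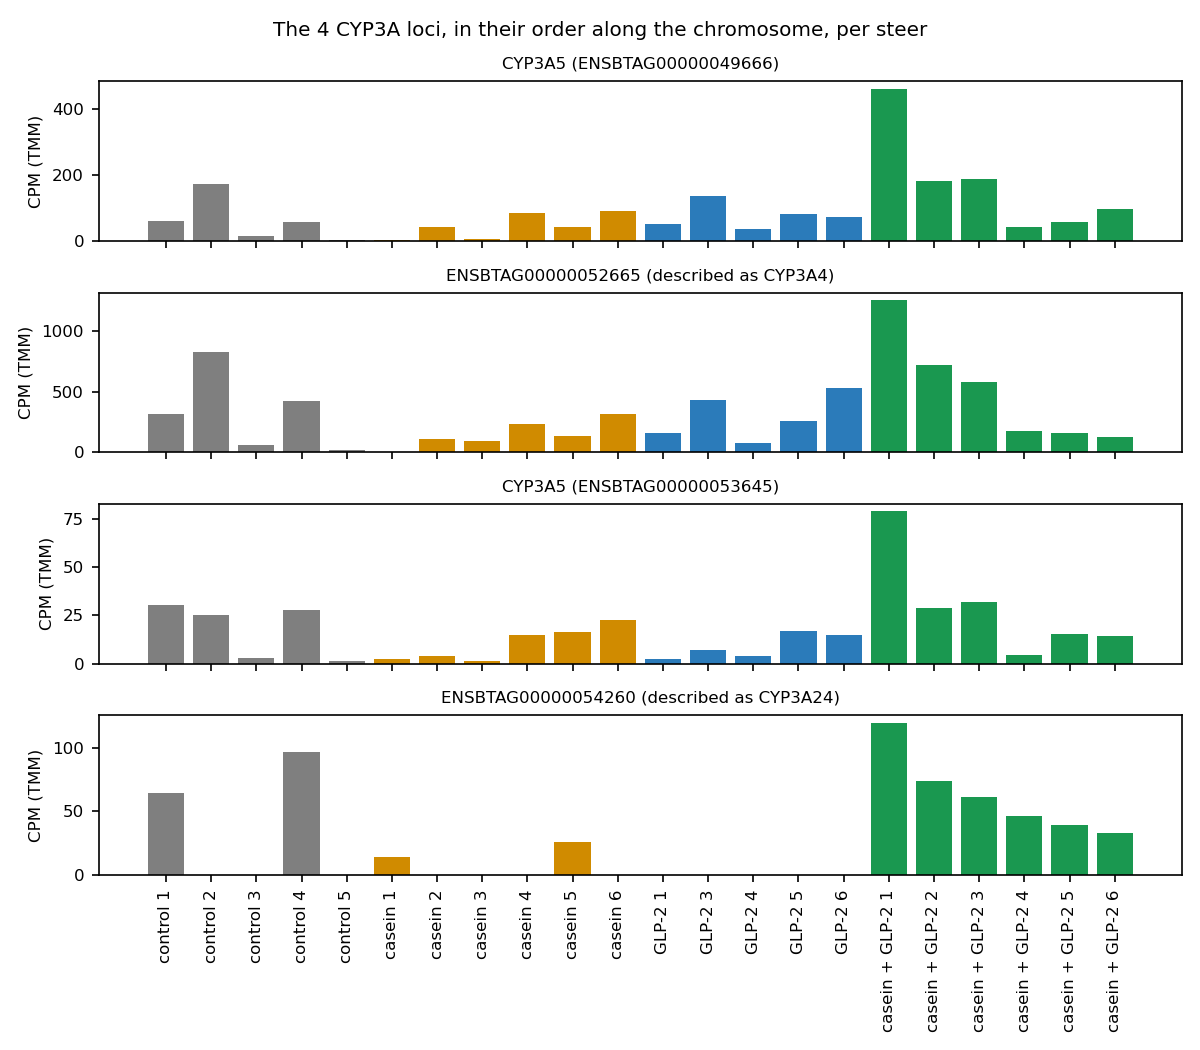
TMM-normalized CPM of the 4 CYP3A loci in each of 22 steers, in their order along the chromosome, with bars colored by treatment. The upper 3 loci have counts in every steer, while ENSBTAG00000054260 is high in all 6 casein + GLP-2 steers, absent in all 5 GLP-2 steers and split within control and casein.

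Among the other unnamed relatives, 2 of the 11 tested were called between GLP-2 and BSA, against 13.5% of all genes, and both were higher with GLP-2. They were ENSBTAG00000051542, described as a CYP2J (0.96, SE 0.260, adjusted p = 0.0255 in edgeR), a family that epoxidizes arachidonic acid, and ENSBTAG00000052023, described as UGT2C1 (1.33, SE 0.430, adjusted p = 0.0438). With the replicate block the edgeR adjusted p was 0.0482 for ENSBTAG00000051542 and 0.0695 for ENSBTAG00000052023, so that 1 of the 11 was called, against 4.95% of all genes. The unnamed genes described as SULT1A1 (ENSBTAG00000008635, 182 FPKM) and CYP2J2 (ENSBTAG00000051030, 170.3 FPKM) had levels near those of the leading members. Their log2 fold changes were 0.96 (SE 0.375, adjusted p = 0.0807 in edgeR) and 1.47 (SE 0.528, adjusted p = 0.0609). The SULT1A1-described gene was at 1.96 (SE 0.511) for GLP-2 against control and 0.10 (SE 0.450) for casein + GLP-2 against casein. Its edgeR adjusted p values were 0.162 and 0.910, and 0.996 for the interaction (−1.87, SE 0.673). The CYP2J2-described gene was at 1.58 (SE 0.806) and 1.36 (SE 0.732) in these 2 comparisons.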

How the data were processed

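RNA of jejunal mucosa from 22 steers was analysed. The authors filtered reads with fastp, aligned them to ARS-UCD1.2 with HISAT2 2.0.5, assembled transcripts with StringTie 1.3.3b, and deposited raw counts per gene from featureCounts 1.5.0-p3. The authors also deposited FPKM, which equal count per length and total multiplied by 1 constant per steer (0.798 to 1.37), and were used for levels between genes and as an alternative. A GLP-2 steer of block 2 and a control steer of block 6 were not analysed here, and 1 gene of the regulator list is not reported here. From the counts, edgeR 4.0.16 in R 4.3.3 gave TMM factors, filterByExpr (minimum count 10), quasi-likelihood tests and Benjamini-Hochberg adjustment over all genes, with a threshold of 0.05. DESeq2 1.42.0 and limma 3.58.1 were alternatives. Scripts were tested on simulated data. The p values measure the spread between steers.

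The replicate numbers in the labels are the body weight blocks of the design, so the block fit is an alternative. With treatment means removed, log2 CPM correlated at 0.0331 on average in 30 same-block pairs of steers from different treatments, and at −0.00641 in 151 pairs from different blocks.

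Members and lists were chosen with earlier results of these data known. Named members were the most abundant of each name prefix, those called for GLP-2 over BSA, the 3 with the smallest p for casein and for the interaction, and all tested CYP1 and CYP3 members; others named were chosen after their values were seen. Pathway genes named were those past the threshold, with AHR, NR1I2, NR1I3 and POR added as the known regulators and electron donor. Other lists tested between GLP-2 and BSA gave 3 of 9 epithelial markers higher, 5 of 10 proliferation markers lower and 1 of 1 hepatocyte marker lower. They gave 0 of 9 T cell, 0 of 8 smooth muscle and 0 of 6 goblet and enteroendocrine markers. Of all genes tested, 5.13% were called higher and 8.37% lower in edgeR. Sequence comparisons and promoter motifs were not run.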

Additional observations from a re-analysis of the deposited data

Results flagged for a closer look

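In Dixon's test within treatments, 2 of 72 groups of values held a steer far from the others, and chance alone gives about 1 in 20. Both concern control replicate 2 and neighboring mu-class genes. GSTM3 was at 2.42 log2 CPM in this steer, while the nearest control steer was at 5.66 and the farthest at 6.69. The GSTM1 locus ENSBTAG00000037673 was at 1.38 log2 CPM, with the nearest control steer at 3.04 and the farthest at 3.40. The other GSTM1 locus, ENSBTAG00000017765, also had its lowest value of all steers there, 38.6 CPM. Without control replicate 2, the number of members called between GLP-2 and BSA went from 1 to 5 of 28, while the share of all genes called went from 13.5% to 25.0%. The cause was not tested.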

How the results depend on the processing

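For GLP-2 against BSA, the 1 called member became 0 with the replicate block and gene length correction together (adjusted p 0.0525) and with the follicle or the enterocyte score as a covariate. It became 3 with DESeq2 (CYP2C87, CYP2D14 and CYP2U1), 3 with limma on log2(FPKM + 1) and 3 on log2(FPKM + 0.1) (CYP2C87, CYP2U1 and CYP4F2), and 3 at an adjusted p of at most 0.1. With the replicate block alone it stayed 1, and the block changed no other count of called members in the comparisons tested. Leaving out 1 steer gave 1 to 5 called members, with 5 without control replicate 2 (CYP2C87, CYP2D14, CYP2U1, the CYP3A5 locus ENSBTAG00000049666 and SULT1B1), 3 without casein replicate 6 or GLP-2 replicate 4, and 2 without control replicate 4. The log2 fold change of CYP2U1 then ranged from 0.90 to 1.16. For casein + GLP-2 against casein, DESeq2 gave 2 members in place of 0, and the other comparisons gave 0 under every alternative run.

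Signs turned for some members that had not passed the threshold. With the follicle score as a covariate the log2 fold changes were −0.10 (CYP4F2), −0.34 (GSTA1), −0.20 (GSTP1), 0.0818 (GSTT1), −0.30 (UGT1A1), −0.13 (UGT2B10) and −0.10 (CYP3A5 ENSBTAG00000053645). With the enterocyte score they were −0.0422 (CYP3A5 ENSBTAG00000049666), −0.85 (CYP3A5 ENSBTAG00000053645), −0.24 (GSTA1), −0.17 (GSTP1), 0.40 (GSTT1), −0.0719 (SULT1B1), −0.30 (UGT1A1), −0.0187 (UGT2B10) and −0.87 (CYP4B1). CYP4B1 was also −0.25 with the replicate block, −0.32 with block and length correction, −0.0743 and −0.19 in limma, and −0.24 to 0.47 without 1 steer. GSTP1 was −0.00166 with upper quartile scaling and −0.0281 to 0.18 without 1 steer, and CYP1B1 −0.51 to 0.80. The causes were not tested.

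Over all genes, GLP-2 against BSA gave 1881 calls in edgeR, 2999 in DESeq2, 689 with the replicate block, and 634 to 3516 without 1 steer. The scalings tried moved the median of all genes by less than 0.1 on the log2 scale. With no count filter, 40 members were fitted and 1 was called. The promoter window and protein identity comparisons planned were not run, since they need sequences that were not used here.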
